A study of Mus musculus with 6 samples.

Results

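The genes described here are 10 members of the peroxiredoxin and thioredoxin system, measured in cultured mouse granulosa cells with and without cyclophosphamide. Granulosa cells line the ovarian follicle, feed the oocyte and make oestrogen. They are the 6 peroxiredoxins Prdx1 to Prdx6, the sulfiredoxin Srxn1, the cytosolic and mitochondrial thioredoxins Txn1 and Txn2, and Txnip, the thioredoxin-interacting protein. Each was taken by its symbol from a table of 54532 genes, and all 10 were found once and passed the filter on low values. The cells are labelled wild type and were grown in serum-containing medium. Of the 6 libraries, 3 came from untreated cells and 3 from cells given cyclophosphamide, an alkylating chemotherapy drug, for 24 h. The labels give no dose, do not say whether the cells are primary or an established line, and do not say that replicates were separate cultures or animals, so p-values measure the spread between these libraries, which may be technical. The treatment label of the drug group names an injection into the abdomen, whereas the protocol and design text describe addition to the culture, which is followed here.

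Peroxiredoxins destroy hydrogen peroxide with a reactive cysteine. In the typical 2-Cys enzymes, Prdx1 to Prdx4, this cysteine forms a disulfide that thioredoxin reduces, and thioredoxin reductase restores thioredoxin with electrons from NADPH. When peroxide is high the cysteine can be overoxidised to a sulfinic acid, and sulfiredoxin is the enzyme that repairs it. TXNIP, an alpha-arrestin, binds reduced thioredoxin and also restrains glucose uptake. Srxn1, Prdx1 and the thioredoxin reductase gene Txnrd1 are known targets of NRF2, a transcription factor that binds antioxidant response elements, and Txnip is a known target of the glucose-sensing Mondo and MLX factors.

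The sequences upstream of Srxn1, Prdx1 and Txnip are shown because Srxn1 and Txnip had the largest rise and the largest fall of the 10, and because Prdx1, like Srxn1, is a known NRF2 target. Each line holds the 250 bases before the RefSeq start site (build GRCm38.p6), 5′ to 3′ on the gene's own strand. Capitals mark the antioxidant element core, written TGACNNNGC or TGAGNNNGC and searched on both strands, in Srxn1 and Prdx1, and a pair of CACGNG boxes with 5 bases between them, the layout of a carbohydrate response element, in Txnip.
Srxn1, chr2:152105274-152105523, plus strand: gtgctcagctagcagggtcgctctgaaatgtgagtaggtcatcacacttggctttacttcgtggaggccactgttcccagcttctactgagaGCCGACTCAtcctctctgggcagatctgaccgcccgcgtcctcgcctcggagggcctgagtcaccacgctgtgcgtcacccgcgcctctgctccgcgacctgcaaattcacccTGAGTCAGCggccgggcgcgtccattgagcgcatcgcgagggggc
Prdx1, chr4:116685349-116685598, plus strand: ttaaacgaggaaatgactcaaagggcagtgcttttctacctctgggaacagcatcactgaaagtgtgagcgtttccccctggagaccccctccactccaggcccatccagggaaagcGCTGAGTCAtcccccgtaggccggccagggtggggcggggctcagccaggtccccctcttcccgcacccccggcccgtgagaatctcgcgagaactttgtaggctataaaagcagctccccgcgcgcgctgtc
Txnip, chr3:96557707-96557956, plus strand: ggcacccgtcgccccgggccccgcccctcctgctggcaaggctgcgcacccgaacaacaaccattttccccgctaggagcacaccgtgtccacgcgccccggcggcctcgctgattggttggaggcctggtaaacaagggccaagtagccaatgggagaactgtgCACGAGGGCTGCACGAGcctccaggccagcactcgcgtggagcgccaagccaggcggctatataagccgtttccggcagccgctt

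The Srxn1 stretch holds 2 matches, GCCGACTCA at 158 to 150 bases and TGAGTCAGC at 45 to 37 bases before the start. Prdx1 holds 1, GCTGAGTCA at 133 to 125 bases before the start, and Txn2, not printed in full, holds GCCCTCTCA at 187 to 179 bases. Of 9 members with a promoter in the RefSeq table, these 3 have a match to either core, against 23% of all 32851 promoters, and at least 2 matches occur in 3.18% of all promoters. Among the 13423 promoters of genes tested for change, these shares were 25.9% and 4.04%. In Txnip the match is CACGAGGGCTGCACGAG at 85 to 69 bases before the start, and 15 of all promoters (0.0457%) hold one, or 0.0596% of those of tested genes. The core TGAGNNNGC and the CACGNG pair were added after these sequences were seen, so their shares do not set the members apart. A single E-box, CACGTG, was found in Prdx4 among the members, in 6.02% of all promoters and in 8.25% of those of tested genes. The stricter pair of CACGTG boxes at the same spacing was in no promoter of the table. TGATGCAAT and TGATGNAAT, forms of the C/EBP-ATF element, were in 0.167% and 0.816% of promoters and in none of the 9 members. No promoter of Prdx6 was in the table, so that gene was not searched. The TGACNNNGC core alone was in 10.2% of all promoters and TGAGNNNGC alone in 14.4%, or 11.8% and 16.1% of those of tested genes. Of the 9 members, TGACNNNGC was in 1, Prdx1, and TGAGNNNGC in 2, Srxn1 and Txn2. Srxn1 thus matched only the core added after the sequences were seen. A match is a description of these letters and not a binding site.

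Of the 10 genes, 5 rose and 4 fell with cyclophosphamide, and 1, Txn1, did not pass the threshold (limma across all genes, Benjamini-Hochberg adjusted p under 0.05). Srxn1 rose far more than any other member, Prdx6, Prdx1, Txn2 and Prdx3 rose less, and Txnip, Prdx4, Prdx2 and Prdx5 fell. Calls were common in these libraries, with 69.3% of the 14755 genes tested past the threshold, 33.3% higher and 36.0% lower, so 9 of 10 is not far above the background. The groups did not overlap for 9 members, as for 73.4% of genes tested. The members' median log2 fold change was 0.25 against -0.02 for all genes tested, and their median absolute change was 0.92 against 0.57.

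**Figure D1:**
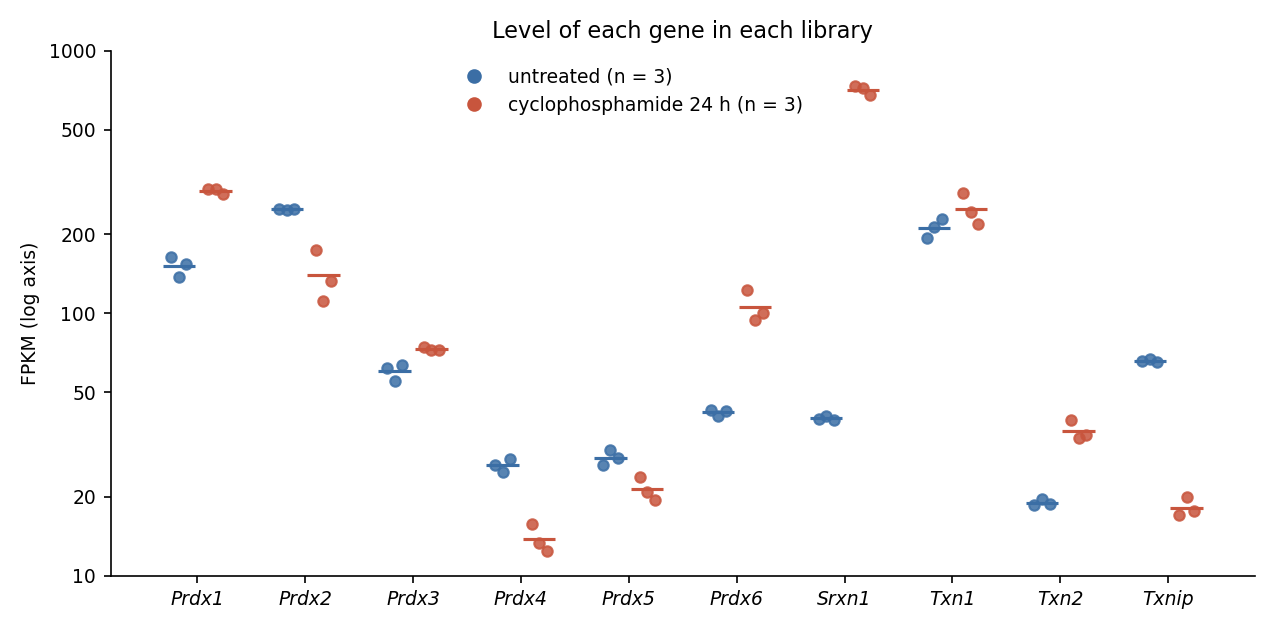
FPKM of the 10 genes in each library on a log axis, with untreated libraries in blue, cyclophosphamide libraries in red and a line at each group's mean (n = 3). Srxn1 goes from 39.7 to 711 and Txnip from 66.0 to 18.2, while the groups of Txn1 overlap.

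Srxn1, the sulfinic acid reductase that returns overoxidised peroxiredoxins to service, went from a middling to the highest level of the 10. The gene (ENSMUSG00000032802) lies on chromosome 2 from 152105516 to 152111376, on the plus strand, in 2 exon blocks. It stood at 39.4, 40.5 and 39.2 FPKM in untreated libraries and at 735, 720 and 679 with cyclophosphamide. FPKM are reads per kilobase of gene length, scaled to a size set for each library. Both groups were tight, with a coefficient of variation of 1.67% and 4.10%. The means of 39.7 ± 0.66 and 711 ± 29.1 FPKM (SD, n = 3) differ 17.9-fold, and the log2 fold change was 4.16 ± 0.07 (SE, limma, adjusted p = 4.4e-08). By log2 fold change Srxn1 ranked 14 among the 14755 genes tested. Reads of the gene summed to 5680 in untreated and 103612 in cyclophosphamide libraries.

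The 3 genes whose values over the 6 libraries lay closest to those of Srxn1, after centring on the untreated mean, were Fosl1, Ddit3 and Hmox1. Fosl1 encodes an AP-1 subunit, Ddit3 the stress transcription factor CHOP and Hmox1 heme oxygenase. Their root mean square distances from Srxn1 were 0.193, 0.193 and 0.195 on the log2 scale, among 7522 protein-coding genes with a mean of at least 5 FPKM. The measure is governed by the difference between the groups and is a description only.

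Among the peroxiredoxins 3 rose and 3 fell. The rises were in Prdx1, Prdx3 and Prdx6 and the falls in Prdx2, Prdx4 and Prdx5.

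Prdx1 is an abundant cytosolic 2-Cys enzyme (ENSMUSG00000028691, chromosome 4, 116685544 to 116700822, plus strand, 7 exon blocks). Its level was 164, 137 and 154 FPKM untreated and 296, 299 and 285 with the drug. The means rose from 152 ± 13.5 to 293 ± 7.23 FPKM, 1.93-fold, and the log2 fold change was 0.95 ± 0.09 (limma, adjusted p = 4.2e-05). All cyclophosphamide libraries lay above all untreated ones. The processed pseudogene Gm21399 is 98.3% identical to Prdx1 over 597 bases and went from 212 to 571 reads, and reads of the 3 copies found summed to 1.13% of those of Prdx1, so a small part of its reads cannot be assigned with certainty.

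Prdx2, the close cytosolic relative of Prdx1 that is best known from red blood cells, moved the other way (ENSMUSG00000005161, chromosome 8, 84969587 to 84974834, plus strand, 6 exon blocks). Untreated libraries were nearly equal at 250.3, 248.2 and 248.7 FPKM, and cyclophosphamide libraries were spread at 174, 112 and 132. Even the highest of these, replicate 1, was below every untreated library. The means fell from 249.1 ± 1.11 to 139 ± 31.9 FPKM, 0.559 of the untreated level, and the log2 fold change was -0.86 ± 0.15 (limma, adjusted p = 0.0012). It was -1.04 without cyclophosphamide replicate 1 and -0.71 without replicate 2. The exons of Prdx2 overlap 173 bases of Junb and 177 bases of Rnaseh2a on the opposite strand. Reads of Junb went from 2964 to 5833 and those of Rnaseh2a from 4357 to 3523, while Prdx2 went from 38514 to 21812. No source used here states whether counting was by strand, so reads in the overlaps cannot be told apart. The pseudogene Tdpx-ps1, 96.3% identical over 597 bases, had 13 and 8 reads. Haemoglobin genes, markers of red cells, were at or near 0: Hba-a1, Hba-a2, Hbb-bs and Hbb-bt each had under 10 reads over all 6 libraries.

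Prdx1 and Prdx2 changed places in order of level. The ratio of Prdx1 to Prdx2 was 0.655, 0.553 and 0.62 in untreated libraries and 1.70, 2.68 and 2.16 with cyclophosphamide. Prdx2 made up 44.7% ± 1.36 of the summed peroxiredoxin FPKM before and 21.4% ± 3.20 after, and Prdx1 27.2% ± 1.55 and 45.5% ± 3.48 (SD, n = 3). The groups did not overlap for either share.

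Prdx6, the 1-Cys enzyme that uses glutathione in place of thioredoxin and can also repair oxidised phospholipids, rose most among the 6 (ENSMUSG00000026701, chromosome 1, 161240112 to 161251219, minus strand, 5 exon blocks). It went from 42.7, 40.6 and 42.2 FPKM to 123, 94.5 and 100.4. The means of 41.9 ± 1.10 and 106 ± 14.8 FPKM differ 2.53-fold, and the log2 fold change was 1.33 ± 0.10 (limma, adjusted p = 1.2e-05). Its share of the summed peroxiredoxin FPKM went from 7.51% ± 0.06 to 16.3% ± 0.95. The close copy Prdx6b had 0 reads in every library.

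Prdx3, the mitochondrial 2-Cys enzyme, rose slightly (ENSMUSG00000024997, chromosome 19, 60864051 to 60874556, minus strand, 7 exon blocks). Its values were 62.0, 55.4 and 63.5 FPKM untreated and 74.1, 72.3 and 72.2 with cyclophosphamide. The log2 fold change was 0.28 ± 0.07 by limma (adjusted p = 0.008). The groups were separate but close. Its share of the summed FPKM overlapped between the groups (10.8% ± 0.46 and 11.3% ± 0.72).

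Prdx4, the 2-Cys enzyme of the endoplasmic reticulum, which turns peroxide into disulfides for protein folding, fell to the lowest level of the 10 (ENSMUSG00000025289, chromosome X, 155323918 to 155340754, minus strand, 9 exon blocks). It stood at 26.3, 24.8 and 27.9 FPKM untreated and at 15.7, 13.3 and 12.5 with the drug. The log2 fold change was -0.93 ± 0.10 (limma, adjusted p = 6.5e-05). No cyclophosphamide library reached the lowest untreated value.

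Prdx5, an atypical enzyme found in mitochondria, peroxisomes and cytosol, fell by less (ENSMUSG00000024953, chromosome 19, 6906697 to 6910106, minus strand, 3 exon blocks). Its values were 26.3, 30.2 and 28.1 FPKM untreated and 23.8, 20.8 and 19.3 with cyclophosphamide. The log2 fold change was -0.40 ± 0.09 by limma (adjusted p = 0.0043), and the groups did not overlap. Its exons overlap 409 bases of Trmt112 on the opposite strand, whose reads went from 1488 to 2001 while those of Prdx5 went from 3062 to 2352. These reads too cannot be told apart without the strand.

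The summed level of the 6 peroxiredoxins changed little beside these shifts. It was 572, 536 and 565 FPKM untreated and 707, 611 and 622 with cyclophosphamide, with means of 558 ± 18.7 and 646 ± 52.4, 1.16-fold. The groups did not overlap, and the two-sided exact permutation test gave p = 0.10, the smallest that 3 against 3 libraries allow. The difference of 88.8 FPKM was 58.7 without cyclophosphamide replicate 1, and between 53.5 and 128 under other scalings of the libraries. For the 4 typical 2-Cys enzymes alone, the sum overlapped between the groups, with means of 488 ± 19.4 and 519 ± 35.6 FPKM.

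**Figure D2:**
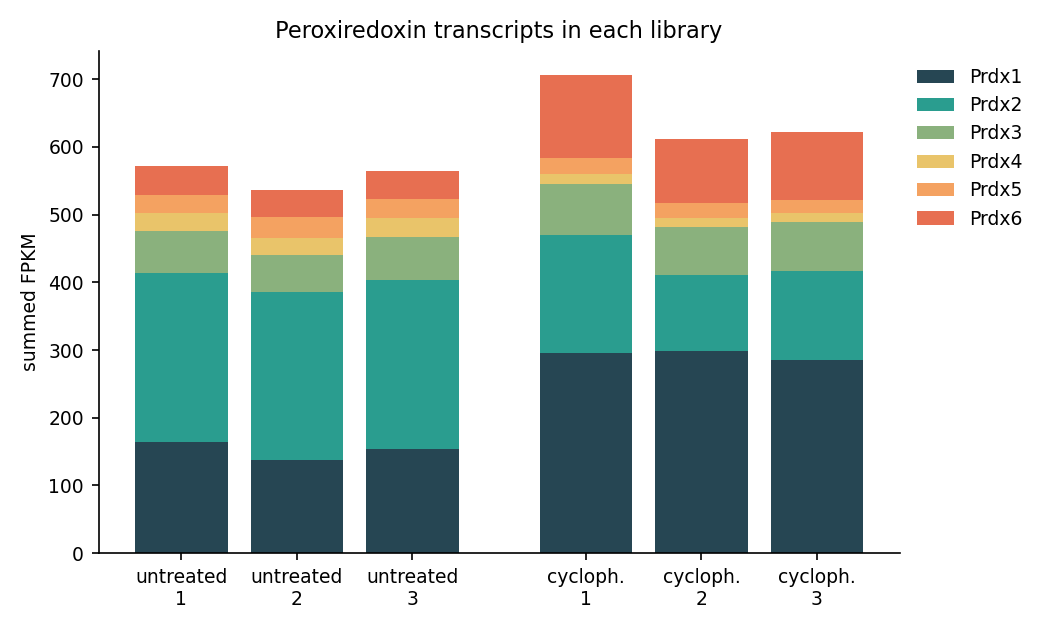
Stacked FPKM of Prdx1 to Prdx6 in each library. The total rises from a mean of 558 to 646 FPKM, while the share of Prdx2 falls from 44.7% to 21.4% and those of Prdx1 and Prdx6 grow.

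Srxn1 also rose relative to the genes of its substrates. The FPKM of Srxn1 divided by the sum of Prdx1 to Prdx4 was 0.0785, 0.0869 and 0.0794 in untreated libraries and 1.31, 1.45 and 1.35 with cyclophosphamide. The level of the repair enzyme gene was thus below the sum of the 4 peroxiredoxin genes in every untreated library and above it in every cyclophosphamide library. The ratio rose by 4.07 on the log2 scale (two-sided exact permutation test, p = 0.10, the smallest possible). As the sum of Prdx1 to Prdx4 overlapped between the groups, the ratio mostly restates the rise of Srxn1.

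Of the thioredoxin genes, the mitochondrial one rose and the cytosolic one did not pass the threshold. Txn1, the cytosolic thioredoxin (ENSMUSG00000028367, chromosome 4, 57943373 to 57956411, minus strand, 5 exon blocks), stood at 194, 213 and 229 FPKM untreated and at 288, 242 and 219 with cyclophosphamide. The groups overlap, since cyclophosphamide replicate 3 lies below untreated replicate 3. The log2 fold change was 0.23 ± 0.12 (limma, adjusted p = 0.12), and over the alternatives it ran from 0.12 to 0.32 with adjusted p between 0.012 and 0.32. The pseudogene Txn-ps1 had 1 read in all. A call was made in 3 of the alternatives, with adjusted p of 0.033 under upper-quartile scaling, 0.039 under scaling to total reads and 0.012 in limma-voom on recovered reads. Scaling by median-of-ratios size factors gave no call (limma, adjusted p = 0.10), nor did upper-quartile scaling over tested genes (0.27).

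Txn2, the mitochondrial thioredoxin (ENSMUSG00000005354, chromosome 15, 77915047 to 77929006, minus strand, 5 exon blocks), rose in every library. It went from 18.6, 19.7 and 18.7 FPKM, the lowest level of the 10 in untreated cells, to 39.2, 33.5 and 34.4. The means of 19.0 ± 0.58 and 35.7 ± 3.10 FPKM differ 1.88-fold, and the log2 fold change was 0.90 ± 0.07 (limma, adjusted p = 2.1e-05). The difference between the changes of Txn1 and Txn2 was not tested.

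Of the 3 thioredoxin reductases, selenoenzymes that recharge thioredoxin, 1 rose, 1 fell and 1 did not pass the threshold. Cytosolic Txnrd1 rose from 145, 150.5 and 148 FPKM to 439, 423 and 395. The log2 fold change was 1.50 ± 0.08 by limma (adjusted p = 3.2e-06). Mitochondrial Txnrd2 was low, at 2.77 to 3.502 FPKM untreated and 2.51 to 3.03 with cyclophosphamide, and its log2 fold change was -0.17 ± 0.13 (limma, adjusted p = 0.29). Txnrd3, a form best known from testis, fell (-0.53 ± 0.16, limma, adjusted p = 0.017), by 0.34 without cyclophosphamide replicate 1.

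Txnip, the inhibitor of thioredoxin, fell in all cyclophosphamide libraries (ENSMUSG00000038393, chromosome 3, 96557957 to 96561883, plus strand, 6 exon blocks). It stood at 66.0, 67.1 and 64.9 FPKM untreated and at 16.98, 19.9 and 17.6 with the drug. The means fell from 66.0 ± 1.11 to 18.2 ± 1.53 FPKM, to 0.275 of the untreated level, and the log2 fold change was -1.86 ± 0.07 (limma, adjusted p = 8.1e-07). In all, 5.3% of the genes tested fell more. The antisense gene Gm15441, which overlaps 606 bases of its exons, had 8 reads in untreated and 0 in cyclophosphamide libraries, beside 10454 and 2936 for Txnip.

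The ratio of Txnip to Txn1 fell with it. It was 0.340, 0.316 and 0.283 in untreated libraries and 0.0589, 0.082 and 0.0805 with cyclophosphamide. The log2 ratio fell by 2.10 (two-sided exact permutation test, p = 0.10, the smallest possible). As Txn1 did not pass the threshold, the ratio mostly restates the fall of Txnip. No library of either group came near the other group.

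**Figure D3:**
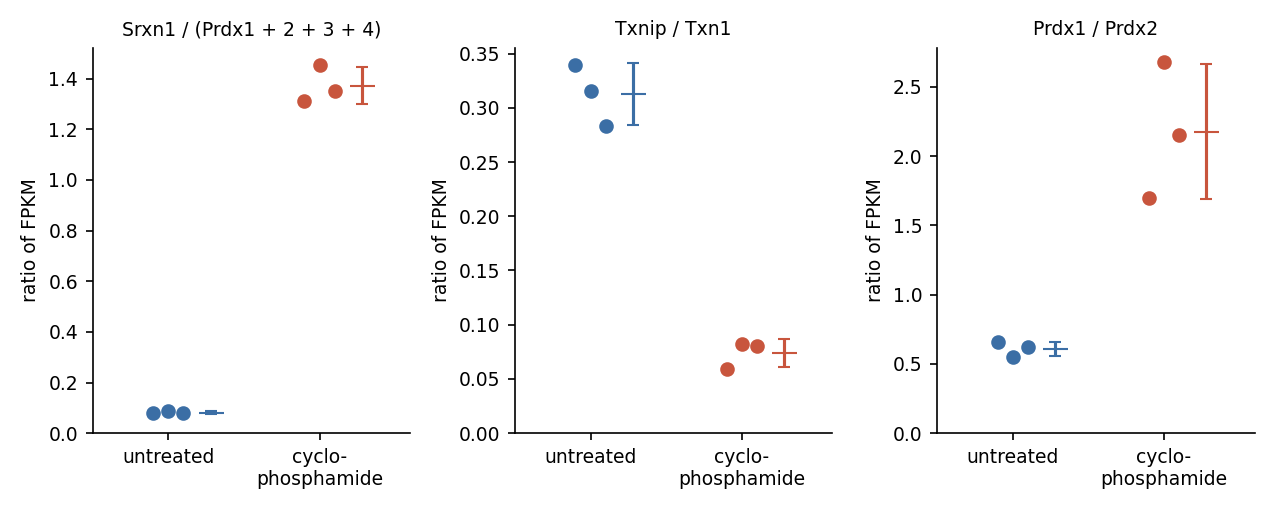
Ratios of FPKM in each library, with the mean and SD (n = 3) beside the points, for Srxn1 over the sum of Prdx1 to Prdx4, Txnip over Txn1, and Prdx1 over Prdx2. The groups are separate in all 3 panels, at means of 0.0816 and 1.37, 0.313 and 0.0738, and 0.61 and 2.18.

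Other alpha-arrestins, the protein family of TXNIP, went in different directions. Arrdc4 and Arrdc3, which also act on glucose transport and receptor sorting, rose from 4.47 ± 0.33 to 17.3 ± 1.06 FPKM and from 22.3 ± 2.59 to 81.7 ± 7.79 FPKM. Their log2 fold changes were 1.93 ± 0.09 and 1.87 ± 0.10 (limma, adjusted p = 1.3e-06 and 3.2e-06). Arrdc1 fell (-0.85 ± 0.10), Arrdc2 did not pass the test, and Arrdc5 had 1 read in all. Among the Mondo and MLX factors, Mlx, the common partner, rose by 0.58 ± 0.11, and the lowly expressed Mlxipl (ChREBP) fell from 0.757 to 0.411 FPKM (-0.74 ± 0.19, or -0.31 with a pseudocount of 1). Mlxip (MondoA) stood at 12.9 ± 0.67 and 13.0 ± 0.24 FPKM (limma, adjusted p = 0.96, with a sign that changed between settings).

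The genes whose profiles lay closest to Txnip were Fam102b, Lrrc8c and Wdr6. Lrrc8c encodes a subunit of volume-regulated anion channels. Their root mean square distances were 0.045, 0.058 and 0.066 on the log2 scale over the 6 libraries, with log2 fold changes of -1.83 ± 0.10, -1.80 ± 0.08 and -1.83 ± 0.09. As above, this likeness is mostly the difference between the groups.

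The order of the 10 levels, in FPKM and thus per length, was redrawn. In untreated cells it ran Prdx2, Txn1, Prdx1, Txnip, Prdx3, Prdx6, Srxn1, Prdx5, Prdx4 and Txn2, with neighbouring ranges overlapping only for Prdx5 and Prdx4. With cyclophosphamide it ran Srxn1, Prdx1, Txn1, Prdx2, Prdx6, Prdx3, Txn2, Prdx5, Txnip and Prdx4. Ranges there overlapped between Prdx1 and Txn1, between Prdx2 and Prdx6 and between Prdx5 and Txnip, so those places are not settled.

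Among genes of thioredoxin-dependent enzymes, with 1 kinase that thioredoxin binds, 5 of 8 fell and 0 rose, with a median log2 fold change of -0.93 against -0.02 for all genes tested. Calls over all genes tested were 36.0% lower and 33.3% higher. Msra and Msrb3, methionine sulfoxide reductases that repair oxidised methionine, fell by 1.89 (SE 0.24) and 1.81 (SE 0.08) on the log2 scale, Msra at only 291 reads untreated and 66 with the drug. With a pseudocount of 1 the fall of Msra was -0.85. The others that fell were the selenoenzyme Msrb1 and the ribonucleotide reductase genes Rrm1 and Rrm2. Map3k5, the kinase ASK1 that thioredoxin holds inactive, did not pass the test (-0.17 ± 0.10, limma, adjusted p = 0.17).

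Of the 4 glutaredoxins, which draw electrons from glutathione, 2 rose and 1 fell. Glrx3 and Glrx5, with roles in iron-sulfur cluster supply, rose from 25.0 ± 0.30 to 40.5 ± 1.29 FPKM and from 22.3 ± 3.71 to 40.3 ± 5.17 FPKM. Cytosolic Glrx fell from 2.89 ± 0.20 to 1.02 ± 0.25 FPKM (log2 fold change -1.43 ± 0.18, or -0.95 with a pseudocount of 1), and Glrx2 did not pass the test (-0.11 ± 0.11). Of 15 other proteins with a thioredoxin fold, 4 rose and 5 fell, with a median of -0.05. Txnl4a, a spliceosome component, rose most (1.66 ± 0.13), followed by the membrane oxidoreductase Tmx4 (0.35 ± 0.08). Txndc5, a disulfide isomerase, fell by 0.75 (SE 0.07), and Txndc16 by 0.45 (SE 0.13). The call of Txndc16 was lost without untreated replicate 1 (limma, adjusted p = 0.055) or cyclophosphamide replicate 3 (0.057).

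Other peroxide-removing enzymes moved apart from each other. Cat, the peroxisomal catalase, rose from 65.1 ± 4.08 to 152 ± 3.80 FPKM (log2 fold change 1.22 ± 0.07, limma, adjusted p = 4e-06). The 5 glutathione peroxidases tested all fell, with the cytosolic Gpx1 at -1.04 ± 0.11 and the secreted Gpx3 at -1.09 ± 0.09, beside 36.0% of all genes tested. Among the superoxide dismutases, which make hydrogen peroxide, cytosolic Sod1 did not pass the test (0.18 ± 0.11). Mitochondrial Sod2 rose slightly (0.25 ± 0.09, limma, adjusted p = 0.033), a call that was lost without any 1 of 4 libraries, untreated replicates 1 and 3 (0.062 and 0.12) and cyclophosphamide replicates 1 and 3 (0.063 and 0.11). Extracellular Sod3 fell (-1.80 ± 0.20, or -0.84 with a pseudocount of 1).

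Of 7 disulfide-forming genes listed for the endoplasmic reticulum, where Prdx4 works, 6 fell and 1 rose, with a median of -0.58. Of all genes tested, 36.0% were called lower and 33.3% higher, with a median of -0.02. The oxidase gene Ero1l (now Ero1a), which makes peroxide as it forms disulfides, rose from 14.1 ± 1.31 to 51.2 ± 7.01 FPKM (log2 fold change 1.85 ± 0.11). The isomerase Pdia4 (-1.06 ± 0.09) and the sulfhydryl oxidase Qsox1 (-0.75 ± 0.06) fell most.

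**Figure D4:**
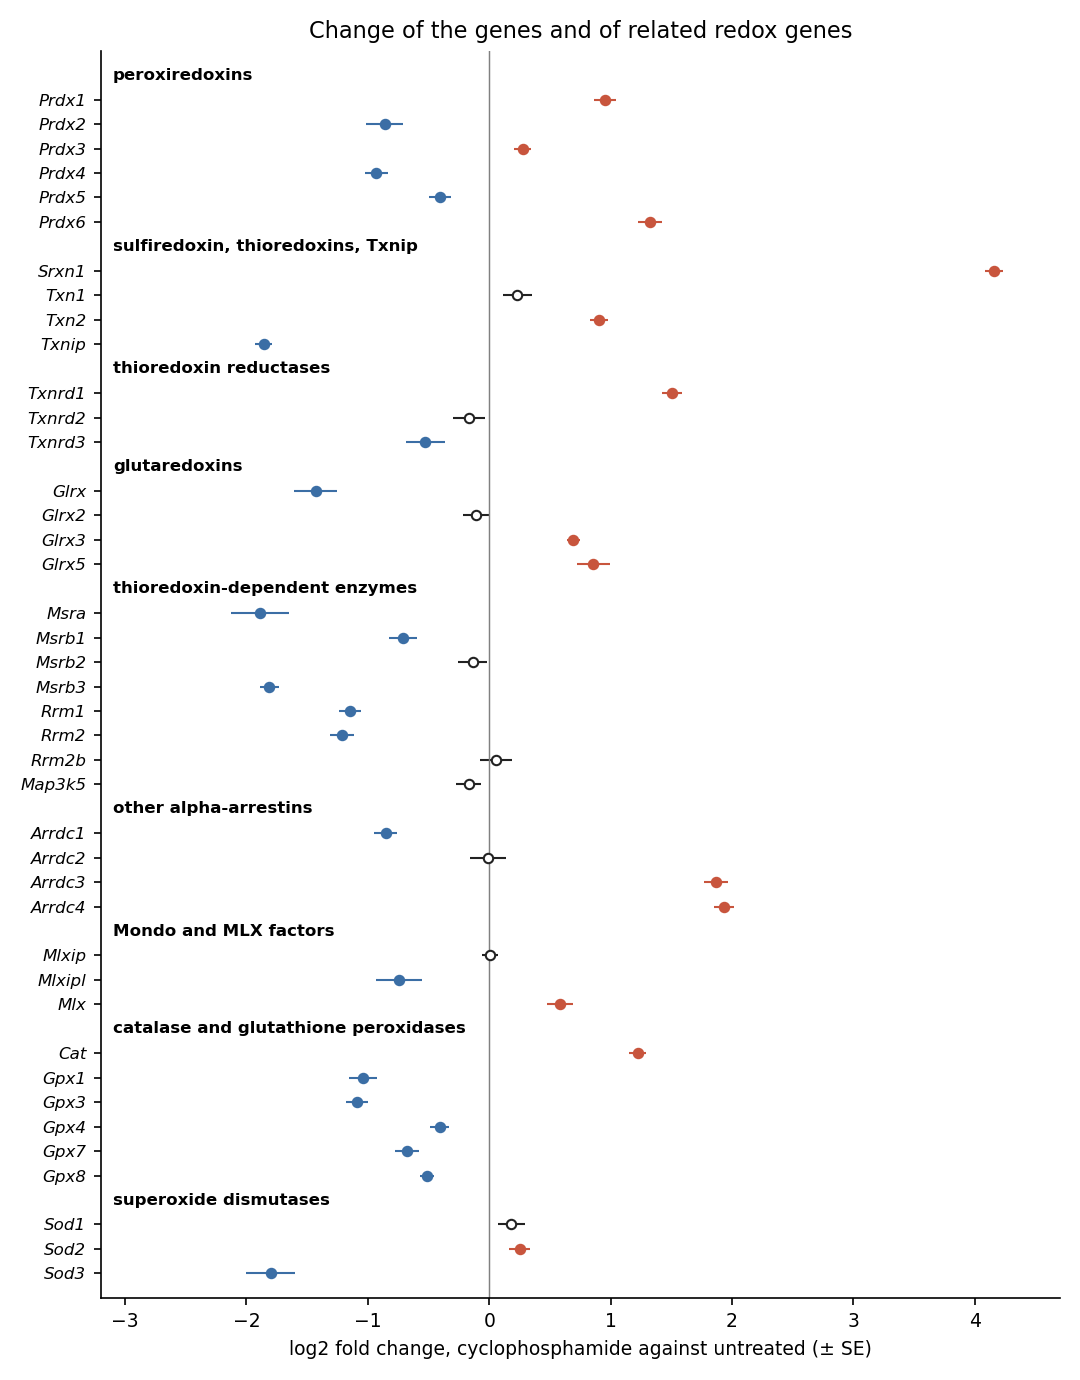
Log2 fold change (cyclophosphamide against untreated, limma, bars are SE) of the 10 genes and of related genes tested. Red points rose, blue points fell and open points did not pass the threshold. Srxn1 at 4.16 lies far to the right of every other gene drawn, and Txnip at -1.86 lies opposite to Arrdc3 and Arrdc4.

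Depth ran from 16458385 to 17607586 reads per library, recovered from the deposited values, and a member had between 453 and 36408 reads in a library. Cyclophosphamide replicate 1 held the highest cyclophosphamide value for 8 of the 10 genes, and its FPKM summed to 300505 over all genes against 279748 and 277197 in the other 2. The share of all genes tested with their highest cyclophosphamide value in replicate 1 was not counted, so 8 of 10 has no background here. The part of this library in the wider spread of Prdx2, Prdx6 and Txn1 was not tested. Without it the same 9 members kept their calls and directions. Of 8 granulosa markers tested, 7 fell and 1 rose, and their summed level went from 2714 to 2868 FPKM untreated to 1038 to 1345 with cyclophosphamide. For this and the other marker counts, the background is 36.0% of all genes tested called lower and 33.3% higher. The granulosa sum was mostly from Inha and Inhba, at means of 1984 and 574 FPKM untreated and 905 and 90.4 with cyclophosphamide. The granulosa marker that rose was Kitl, from a mean of 43.1 to 83.6 FPKM. Amh, with 16 reads untreated and 22 with the drug, was not tested. Cyp19a1, the aromatase gene that defines mature granulosa cells, had under 10 reads in all. Of 6 surface epithelium markers 5 fell, and their sum was 107 to 120 FPKM untreated and 49.97 to 73.5 with cyclophosphamide. That sum was nearly all from the keratins Krt8 and Krt18, at untreated means of 51.1 and 60.7 FPKM. Upk3b, Upk1b, Krt19 and Msln had untreated means of 0.692, 0.617, 0.889 and 0.644 FPKM. Endothelial markers were low, with a sum of 0.46 to 0.639 FPKM untreated and 1.90 to 2.50 with cyclophosphamide. The higher sum came mostly from Esam, with means of 0.261 and 1.80 FPKM. Means were 0.0633 and 0.114 for Pecam1, 0.178 and 0.139 for Cdh5, and 0.039 and 0.043 for Kdr. Of the 2 endothelial markers tested, Esam rose, from 38 to 267 reads, and Cdh5 did not pass the test. The sum of oocyte markers was likewise 0.89 to 1.37 FPKM untreated and 3.20 to 4.62 with cyclophosphamide. Of the 3 oocyte markers tested, Gdf9 rose, from 41 to 253 reads, as did Ooep, from 34 to 78 reads, and Ddx4 did not pass the test. The defining oocyte genes Zp1, Zp2 and Zp3 each had under 10 reads in all. The sum of macrophage markers was 4.86 to 5.88 FPKM untreated and 3.95 to 6.13 with cyclophosphamide, where Cd68 rose and Lyz2 fell. Those 2 genes made up most of it, and the other listed genes had few reads. Untreated and with the drug, Ptprc had 9 and 7 reads, Adgre1 3 and 1, Tyrobp 7 and 3, and Fcer1g 13 and 10. C1qa had 10 and 2, C1qb 8 and 1, and C1qc 16 and 4. Theca markers, none of them tested, summed to 0.24 to 0.371 FPKM untreated and 0.0799 to 0.148 with cyclophosphamide. The lower sum came from Lhcgr, with 35 reads untreated and 5 with the drug. Cyp17a1 went the other way, from 1 to 8 reads, and Insl3 had 1 and 0. The part of these cells in the members' changes was not tested, and in bulk libraries fewer cells of a type and less RNA per cell cannot be told apart.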

How the data were processed

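Polyadenylated RNA of 3 untreated and 3 cyclophosphamide libraries was sequenced. The build GRCm39 and the tools HISAT2 (version 2.0.5) and CASAVA are named in the submitters' processing notes. No source used here states the counting tool, strand setting or annotation release. The deposited values are FPKM made by the authors, although the table is named as raw counts. Multiplied by gene length, 100% of values were whole multiples of 1 step per library (tolerance 0.01), which gave the reads. The library size implied by that step was 0.975 (untreated replicate 3) to 1.04 (cyclophosphamide replicate 2) times the recovered reads. The FPKM are thus not scaled exactly to those reads. Of 54495 gene IDs shared with GENCODE M21 (GRCm38), 98.3% had an equal start and end, so coordinates are read as GRCm38.

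A gene was kept if at least 3 libraries reached a value worth 10 reads and all libraries together reached 15 reads. On log2(FPKM + 0.1), limma (version 3.58.1, R 4.3.3) was fitted with a variance trend, and two-sided p-values were adjusted over all 14755 genes. Fold changes are on that scale, which understates those of low genes. The fit was also run on simulated counts. Far fewer genes changed there than were called here, so that run does not show how the fit performs on these data. Per-library sums and ratios were compared by exact permutation. Copies were transcripts at least 90% identical over 150 bases. Protein sequences were not used here.

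The members, the lists of related genes and the motifs were chosen with earlier results of these data known. All members are named, every gene of a related list of up to 4, and the 2 largest rises and falls without overlap in longer lists, together with pseudogenes of a member and the 3 genes nearest to Srxn1 and to Txnip. Others named (Msrb1, Rrm1, Rrm2, Map3k5, Arrdc2, Arrdc5, marker genes, and genes that overlap or copy a member) were chosen after their values were seen. Alternatives were other pseudocounts, scalings, filters, limma-voom, protein-coding genes only, a replicate block, and leaving out each library.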

Additional observations from a re-analysis of the deposited data

How the results depend on the processing

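Of the 10 genes, 9 kept direction and call under all 17 alternatives, 1 of which, upper-quartile scaling over tested genes, was chosen after seeing the data. Txn1 gained a call under upper-quartile scaling (0.32), scaling to total reads (0.28) and limma-voom (0.28). Among 34 other named genes 29 kept direction and call throughout. Mlxip changed sign with upper-quartile scaling over tested genes (-0.08) and without untreated replicate 2 (-0.04), cyclophosphamide replicate 1 (-0.00) or replicate 3 (-0.01), and ranged from -0.04 to 0.04 over the libraries left out. Txndc16 lost its call without untreated replicate 1 (adjusted p = 0.055) or cyclophosphamide replicate 3 (0.057) and Mlxipl with no filter (0.061), while Sod1 gained one under upper-quartile scaling and limma-voom, and Sod2 lost its call with upper-quartile scaling over tested genes (adjusted p = 0.12) and, as given above, without any of 4 libraries. The cause was not tested. Replicate numbers are shared by the groups, but the labels do not say that they mark a batch, and deviations of same-numbered libraries correlated at -0.0766, 0.0073 and -0.0232, and no untreated library correlated best with its own number. With the replicate number as a block, 9915 genes were called against 10229 without it, and 9 of the 10 genes were called. Among the other named genes Sod2 was not called in that fit (adjusted p = 0.067). The stricter filter left out Msra, Mlxipl and Sod3, which have no value there. No scaling moved the median of all genes by over 0.1. Depth limits genes under 10 reads, such as Cyp19a1, for which no difference could be detected.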
